A study of Mus musculus with 3 samples.

Results

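The Ly6 family surface proteins described here are the mouse genes Ly6a, Ly6c1, Ly6c2, Ly6d, Ly6e and Psca, 6 of the 31053 mouse genes counted in each of 3 single-cell libraries. They were taken by symbol from the mouse features of all 3 libraries and followed in urothelial, endothelial, fibroblast and immune cells. The first library came from bladder assembloids, bladder constructs rebuilt from cells in culture, dissociated 7 days after reconstitution. The second came from assembloids dissociated 1 day after reconstitution, and the third from the bladders of wild-type C57BL/6 mice 8 to 9 weeks old. Each assembloid library was a pool of 3 assembloids and the bladder library a pool of 8 bladders. The labels give no strain, genotype or cell source for the assembloids. No treatment beyond culture is labelled, and all 3 tissues were dissociated with enzymes. With 1 library per group there was no test between groups. Values are UMI counts, that is counts of captured mRNA molecules, summed over the cells of a class and scaled to counts per 1e6 mouse UMIs of that class (CPM). Intervals in brackets are exact 95% intervals that cover counting error only. The 6 genes were chosen by their levels across these libraries and cell classes in an earlier look at the same data, so their levels and ratios are a description.

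Ly6 proteins share a small fold held together by disulphide bonds, and most sit on the outer face of the cell membrane on a glycosylphosphatidylinositol (GPI) anchor. Several of them are best known as labels by which cells are sorted. Ly6a, also called Sca-1, marks blood stem cells, vessels and fibroblast progenitors in the mouse. Ly6c1 and Ly6c2 encode closely related forms of the Ly6C antigen, which marks inflammatory monocytes, some T cells and vessel endothelium. Ly6e is widely expressed and, like Ly6a, is known to respond to interferon in mouse cells. Ly6d and Psca are known mainly from stratified and glandular epithelia, the urothelium among them.

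After filtering, 8172 mouse cells were kept in the 7-day library, 8258 in the 1-day library and 6775 in the bladder library, with a median of 9399, 14938 and 7543 UMIs. A cell was given a class where at least 4 UMIs of at least 2 of the class markers, and at least 75% of all class marker UMIs, were of that class. The 7-day library held 2117 urothelial, 903 endothelial, 3141 fibroblast and 90 immune cells. The 1-day library held 1452, 438, 3427 and 83 of these cells, and the bladder library 2691, 1041, 1545 and 90. Every class held UMIs of all its markers in all 3 libraries, except the 1-day immune class, which held 13 of 18. Cells entered a class by these markers, so this is no independent check. Epcam lay between 238 and 261 CPM in urothelial cells, and Pecam1 between 659 and 1411 CPM in endothelial cells. The summed level of the 15 fibroblast markers in the fibroblast class was 16417 CPM at 7 days, 10854 CPM at 1 day and 85810 CPM in bladder, so this class was much poorer in its own markers in assembloids. The 7-day library shared 114 cell barcodes with the 1-day library and 30 with the bladder library, and the 1-day and bladder libraries shared 21. Every count of pairs given below was the same with the assembloid cells of shared barcodes left out. Many 7-day cells had a transcriptome closer to that of bladder cells than to that of 1-day cells, and the Ly6 values of both kinds are given separately further on.

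The genes lie together on mouse chromosome 15 (mm10), within 397 kb that hold 30 annotated genes, 19 of them protein coding. In order they are Psca (ENSMUSG00000022598, 74714839 to 74717069), Ly6d (ENSMUSG00000034634, 74762056 to 74763620), Ly6e (ENSMUSG00000022587, 74955051 to 74959905), Ly6a (ENSMUSG00000075602, 74994877 to 74998031), Ly6c1 (ENSMUSG00000079018, 75044018 to 75048830) and Ly6c2 (ENSMUSG00000022584, 75108158 to 75111970). Psca and Ly6e are on the plus strand and the others on the minus strand. Some neighbours in this order shared a pattern over the cell classes and others did not. Psca and Ly6d were urothelial, Ly6c1 was endothelial, and its neighbour Ly6c2 was found mainly in immune cells.

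**Figure D1:**
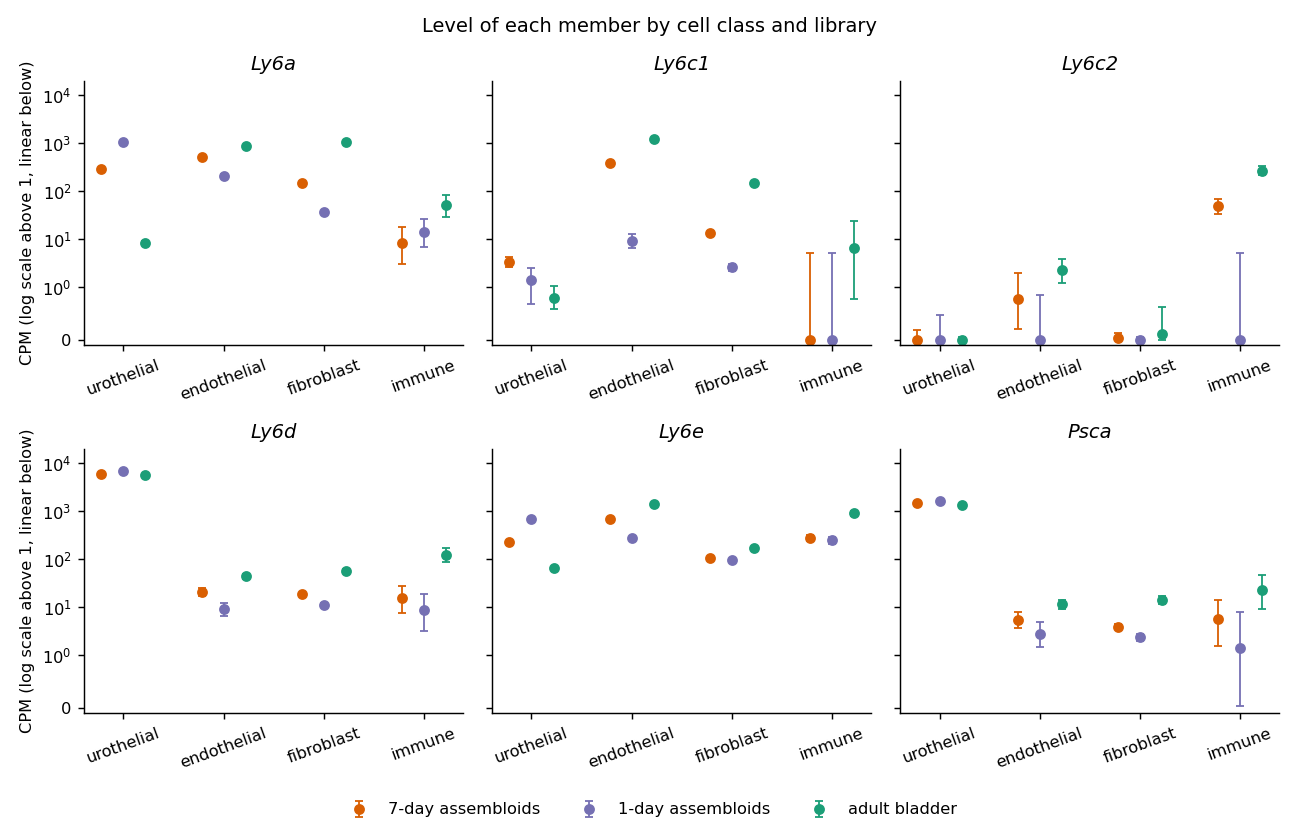
Level of each gene in CPM, on an axis that is logarithmic above 1 and linear below, in 4 cell classes of 7-day assembloids, 1-day assembloids and adult bladder. Points are sums over the cells of 1 library and bars are 95% counting intervals. Ly6a in urothelial cells was at 296, 1087 and 8.34 CPM in these libraries, while in fibroblasts the bladder library was the highest.

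The cell class with the most Ly6a differed between the libraries. In 7-day assembloids the order was endothelial cells (521 CPM), urothelial cells (296 CPM), fibroblasts (149.5 CPM) and immune cells (8.27 CPM). In 1-day assembloids urothelial cells came first at 1087 CPM, ahead of endothelial cells at 210.3 CPM, fibroblasts at 36.6 CPM and immune cells at 14.0 CPM. In adult bladder the urothelial cells were last at 8.34 CPM, behind fibroblasts at 1049.8 CPM, endothelial cells at 875 CPM and immune cells at 51.5 CPM. Neighbours in these orders had counting intervals that did not overlap, and the spread between replicates could not be measured with 1 library per group. The bladder immune value rests on 16 UMIs in 3 of 90 cells, with 8 in 1 B cell and 7 in 1 dendritic cell. Its interval does not cover such clumping, so the order of immune and urothelial cells in bladder is uncertain.

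In the urothelium, the epithelium that lines the bladder, Ly6a and Ly6e stood out from the family in both assembloid libraries. Ly6a had a log2 ratio of 5.15 [5.02 to 5.28] in 7-day assembloids over bladder and of 7.03 [6.90 to 7.16] in 1-day assembloids over bladder. Between the assembloid libraries the 7-day level was the lower one, at a log2 ratio of −1.88 [−1.92 to −1.83]. Ly6e was at 232 CPM at 7 days, 683 CPM at 1 day and 64.3 CPM in bladder, log2 ratios of 1.85 and 3.41 over bladder. Both genes were thus highest at 1 day, intermediate at 7 days and lowest in bladder. Ly6d and Psca, the abundant urothelial genes of the family, did not reach 2-fold in any of these ratios. Ly6d was at 5852 CPM at 7 days, 6796 CPM at 1 day and 5574 CPM in bladder. Psca was at 1468 CPM at 7 days, 1617 CPM at 1 day and 1377 CPM in bladder. These are class means, and the share of cells with Psca, given below, was lower at 1 day. The log2 ratio of all measured urothelial genes had a median of 0.02 at 7 days and 0.23 at 1 day over bladder, and of −0.20 at 7 days over 1 day. Relative to that median, the 1-day ratios of Ly6d (0.29) and Psca (0.23) were close to 0.

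A pair of gene and class is counted below as higher or lower where the ratio was at least 2-fold, its interval excluded 1 and the higher library had at least 20 CPM. Of the 4 family genes measured in urothelial cells, 2 were higher and 0 lower in 7-day assembloids than in bladder, where 1.34% of 5062 measured genes were higher and 0.0198% lower. In 1-day assembloids 2 were higher and 0 lower than in bladder, against 10.9% and 7.09% of 5765 genes. In 7-day over 1-day assembloids 0 were higher and 2 lower, against 4.28% and 4.26% of 5653 genes. Ly6c1 was at 3.36, 1.37 and 0.78 CPM in 7-day, 1-day and bladder urothelial cells, below the minimum level. Ly6c2 had 0 UMIs in all 3, which at 3 counts per class allows up to 0.15, 0.37 and 0.047 CPM.

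Markers of other classes were also found in urothelial cells, and their part in the Ly6a values was not tested. The fibroblast gene Col1a1 was at 77.2 CPM in 1-day urothelial cells against 4060.4 CPM in 1-day fibroblasts, whereas Ly6a was at 1087 CPM in the urothelial cells and 36.6 CPM in the fibroblasts. All 15 fibroblast markers together were at 861 CPM in 7-day urothelial cells, 437 CPM at 1 day and 936 CPM in bladder. The endothelial markers summed to 33.1, 27.5 and 18.2 CPM, and the immune markers to 13.1, 22.2 and 4.97 CPM. The smooth muscle markers summed to 53.9, 118 and 32.9 CPM. The mesothelial list, which holds Krt19 and Upk3b of the urothelial list too, summed to 2295, 2183 and 2356 CPM. The pericyte list was higher at 230, 584 and 115 CPM, and it includes the hypoxia gene Ndufa4l2, which many assembloid urothelial cells hold. At 1 day Ly6a was at 1068 CPM in the 701 urothelial cells with at least 2 UMIs of Ndufa4l2 and at 1105 CPM in the 751 others. At 7 days it was at 1009.8 CPM in the 354 cells with these UMIs and 170.1 CPM in the 1763 without. These 7-day groups pool 1-day-like and bladder-like cells, described further on, and the split by Ndufa4l2 was not repeated within each kind.

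Shares of cells were counted after thinning each cell to 2500 UMIs, which left out cells below that depth. A Ly6a UMI was then found in 26.1% [24.2 to 28.1] of 2037 urothelial cells at 7 days, 81.9% [79.8 to 83.9] of 1355 at 1 day and 1.89% [1.40 to 2.48] of 2651 in bladder. Without thinning the shares were 32.2%, 90.4% and 7.88% at median depths of 8336, 4838 and 21314 UMIs. Immune cells gave thinned Ly6a shares of 3.70%, 1.30% and 5.66% over 54, 77 and 53 cells, at unthinned median depths of 4472, 8073 and 2840 UMIs. The immune shares rest on few cells, some of which held several Ly6a UMIs, so they are no clean background. Ly6e was found in 33.6%, 75.3% and 14.9% of the thinned urothelial cells. Psca was found in 70.5% [68.5 to 72.5] of them at 7 days, 48.3% [45.6 to 51.0] at 1 day and 78.2% [76.6 to 79.8] in bladder. Its similar class means thus came from different shares of cells.

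Ly6a and Ly6e were found in the same urothelial cells more often than their single shares alone would show, at 7 days and in bladder. Among thinned 7-day cells Ly6a was found in 58.5% [54.7 to 62.3] of 685 cells with Ly6e and in 9.69% [8.16 to 11.4] of 1352 cells without. In bladder Ly6a was found in 5.30% of 396 cells with Ly6e and in 1.29% of 2255 cells without. At 1 day the difference was small, with Ly6a in 84.4% of 1020 cells with Ly6e and in 74.3% of 335 cells without. Psca went the other way at 7 days, since Ly6a was found in 18.3% of 1436 cells with Psca and in 44.8% of 601 cells without. At 1 day these shares were 81.3% and 82.5%, and in bladder 0.72% and 6.07%. The 7-day cells pool 1-day-like and bladder-like cells, which differed widely in Ly6a and Ly6e, as described further on. Shares within each kind were not counted.

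**Figure D2:**
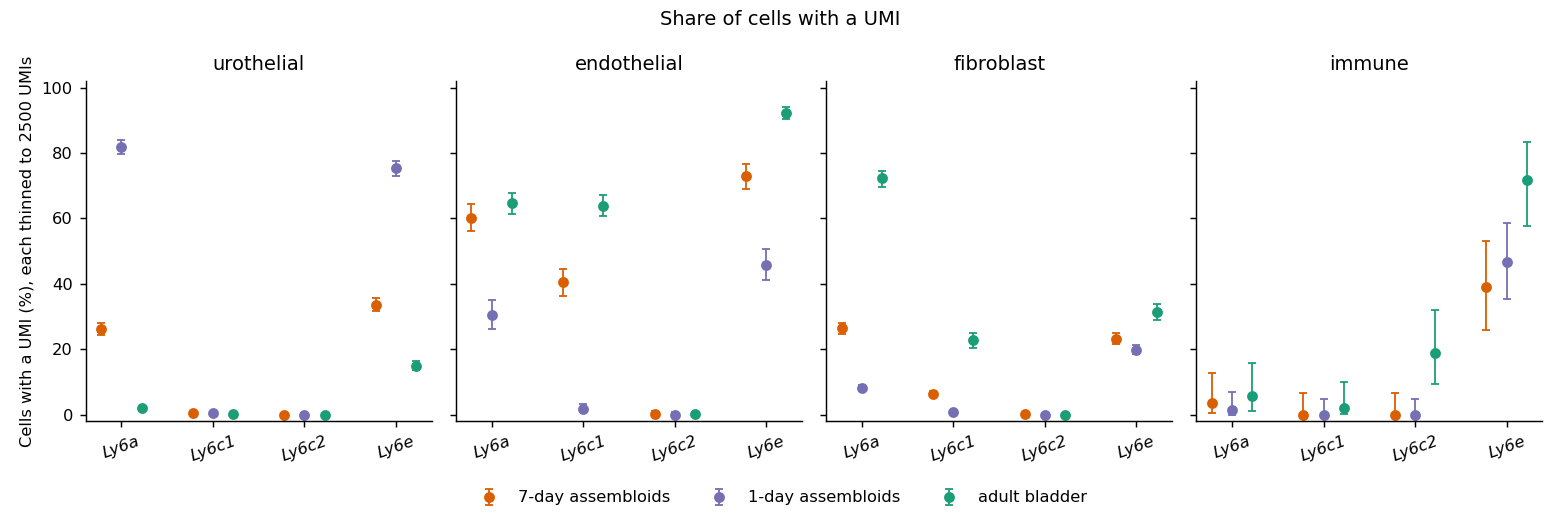
Share of cells with a UMI of Ly6a, Ly6c1, Ly6c2 and Ly6e after each cell was thinned to 2500 UMIs, by class, in 7-day assembloids, 1-day assembloids and adult bladder. Points are shares in 1 library and bars are 95% Clopper-Pearson intervals. In urothelial cells Ly6a was found in 26.1%, 81.9% and 1.89% of the cells of these libraries.

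The urothelium is layered, from basal cells on the matrix to umbrella cells at the lumen, and the family genes differed in how they followed these layers. Cells with at least 10 UMIs of basal or umbrella markers were binned by the share of basal UMIs among them, a split that used no Ly6 gene. In bladder Ly6a was at 1.91 CPM in the 862 cells with a basal share under 10%, 5.11 CPM in 1658 cells between 10 and 50%, 98.6 CPM in 150 cells between 50 and 90% and 434 CPM in 10 cells of at least 90%. In bladder the Ly6a level was thus highest in the basal-rich cells, although the last bin is thin. Ly6a was not limited to them, since the 2 bins under 50% held 48 and 185 of the 532 Ly6a UMIs of the class. In the 1256 bladder cells with a UMI of the umbrella marker Krt20, Ly6a was at 6.79 CPM, beside 8.34 CPM in the whole class. At 1 day the same bins held 1026, 984, 1201 and 1411 CPM over 128, 668, 528 and 75 cells. The 1-day cells rich in umbrella markers therefore carried nearly as much Ly6a as the basal-rich ones. At 7 days the bins held 106, 255, 975.5 and 985 CPM over 593, 1183, 294 and 28 cells. The 7-day bins pool 1-day-like cells, with Ly6a at 1077 CPM, and bladder-like cells, at 15.1 CPM, which are described further on. Bins within each kind were not counted, so layer and kind of cell cannot be told apart at 7 days.

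Ly6e followed a like pattern with a smaller span. At 7 days it was at 104, 220.1, 621 and 604 CPM in the bins from low to high basal share, at 1 day at 766, 659, 697 and 662 CPM, and in bladder at 43.2, 75.5, 108 and 210.0 CPM. The 7-day Ly6e bins pool 1-day-like and bladder-like cells in the same way. Psca ran the opposite way in all 3 libraries. It was at 2600.1, 1031, 197 and 71.6 CPM at 7 days, at 8112, 1472, 216 and 36.8 CPM at 1 day, and at 2087, 971, 161 and 6.77 CPM in bladder. Psca was therefore the family gene that followed the umbrella side, and this held at 1 day, when the class mean differed little from bladder. Ly6d was nearly even over the bins, between 5553 and 6254 CPM at 7 days, 5455 and 7119 CPM at 1 day, and 4234 and 5689 CPM in bladder. Upk3a, a uroplakin and one of the umbrella markers, was at 3984, 195 and 5096 CPM in the 7-day, 1-day and bladder class, so equal bins of different libraries need not hold cells of the same layer.

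**Figure D3:**
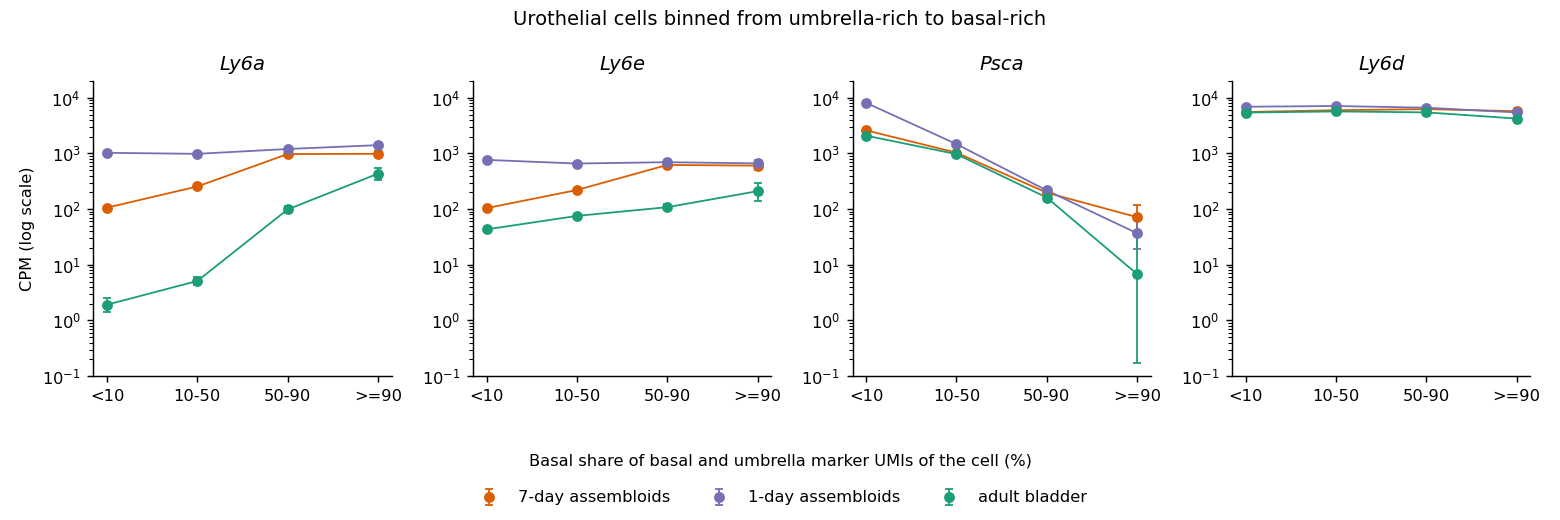
Level of Ly6a, Ly6e, Psca and Ly6d in CPM (log axis) in urothelial cells binned by the basal share of their basal and umbrella marker UMIs, in 7-day assembloids, 1-day assembloids and adult bladder. Points are sums over the cells of a bin and bars are 95% counting intervals. Psca was lower with a higher basal share in all 3 libraries, and Ly6a in bladder was at 1.91 CPM in the lowest bin and 434 CPM in the highest.

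In endothelial cells and fibroblasts, Ly6d and Psca were present at a low level and in a ratio close to that of urothelial cells. The bladder library had 4.05 [4.02 to 4.08] Ly6d UMIs per Psca UMI in urothelial cells, 3.92 [3.01 to 5.16] in endothelial cells and 3.98 [3.27 to 4.87] in fibroblasts. Both genes were there at 0.79% to 1.02% of their urothelial CPM. At 1 day the ratio was 4.20 [4.12 to 4.28] in urothelial cells, 3.25 [1.67 to 6.82] in endothelial cells and 4.86 [4.08 to 5.83] in fibroblasts. At 7 days it was 3.99 [3.93 to 4.04] in urothelial cells, 3.82 [2.50 to 6.02] in endothelial cells and 4.69 [4.06 to 5.43] in fibroblasts, and this last interval lies just above the urothelial one. The levels in endothelial cells and fibroblasts are not read as expression, also where they are counted below. Whether they are background was not tested. Immune cells of the bladder stood higher, with Ly6d at 2.19% and Psca at 1.63% of their urothelial CPM and a ratio of 5.43 [2.39 to 14.4]. Among them Ly6d was at 161 CPM [85.7 to 275] in dendritic cells, where 9 of 18 cells had a UMI, and 1 of 2 B cells held 9 UMIs. Ly6d is known as a gene of B-lineage progenitors. Whether these immune values are background was not tested.

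In endothelial cells, which line blood and lymph vessels, all measured family genes were lower in 1-day assembloids than in bladder, and each was nearer to bladder at 7 days. Ly6c1 showed the widest span, with 389.8 CPM at 7 days, 9.17 CPM at 1 day and 1211 CPM in bladder. Its log2 ratio was −1.64 [−1.71 to −1.56] at 7 days and −7.03 [−7.53 to −6.60] at 1 day over bladder, and 5.39 [4.96 to 5.90] at 7 days over 1 day. Ly6e was at 692, 279 and 1441 CPM in the same order of libraries, with log2 ratios over bladder of −1.06 at 7 days and −2.37 at 1 day. Ly6a was at 521, 210.3 and 875 CPM, with log2 ratios of −0.75 at 7 days, below 2-fold, and −2.06 at 1 day. The number of cells was 903, 438 and 1041, and the summed endothelial markers, at 9213, 9521 and 10575 CPM, differed far less than the Ly6 genes. The 7-day calls depend on the weight of shallow cells. With the mean of per-cell CPM in place of the summed UMIs, the log2 ratio at 7 days over bladder was −0.68 for Ly6c1 and −0.43 for Ly6e, both below 2-fold.

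Of the 4 family genes measured in endothelial cells, 0 were higher and 3 lower in 7-day assembloids than in bladder, against 12.5% and 11.0% of 6611 genes. In 1-day assembloids 0 were higher and 4 lower than in bladder, against 22.7% and 22.1% of 6944 genes. In 7-day over 1-day assembloids 4 were higher and 0 lower, against 7.89% and 1.74% of 6366 genes. In each of these counts 1 gene was Ly6d, at 20.5, 8.94 and 44.2 CPM, which is the low level described above. With 1-day-like 7-day cells only, described further on, the calls of Ly6a, Ly6e and Ly6d over 1 day were lost. Psca stayed below 20 CPM.

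Blood vessel and lymphatic cells of the bladder differed in Ly6a and Ly6c1. Endothelial cells were split by vessel markers, at least 3 UMIs and at least 75% of them of 1 kind, which used no Ly6 gene. In 7-day assembloids Ly6c1 was at 430.3 CPM in 722 blood vessel cells and had 0 UMIs in 99 lymphatic cells, and Ly6a was at 588 and 3.78 CPM. In bladder Ly6c1 was at 1472 CPM in 804 blood vessel cells and 1.99 CPM in 195 lymphatic cells, and Ly6a was at 1066 and 3.98 CPM. Ly6e was present in both kinds, at 735 CPM in blood vessel and 431 CPM in lymphatic cells at 7 days and at 1620 and 574 CPM in bladder. The 1-day library held 392 blood vessel and only 6 lymphatic cells. Within its blood vessel cells alone, Ly6c1 was at 9.97 CPM, Ly6a at 228 CPM and Ly6e at 292 CPM, so the gap to bladder was there without the lymphatic cells.

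At 7 days and in bladder, Ly6a was found more often in endothelial cells with Ly6c1 than in those without. At 2500 UMIs per cell, Ly6a was found in 85.7% [80.4 to 89.9] of 230 cells with Ly6c1 and in 42.9% [37.6 to 48.4] of 338 cells without it at 7 days. In bladder the shares were 84.4% [81.2 to 87.3] of 585 cells and 29.4% [24.5 to 34.6] of 330 cells. These shares pool blood vessel cells with lymphatic cells, which held little of either gene. Shares within blood vessel cells alone were not counted. At 1 day only 7 of 423 thinned endothelial cells had a Ly6c1 UMI, a share of 1.65% against 40.5% at 7 days and 63.9% in bladder. Urothelial cells, which should lack Ly6c1, gave thinned shares of 0.44% at 7 days, 0.44% at 1 day and 0.23% in bladder.

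In fibroblasts Ly6a and Ly6c1 were both lower in assembloids, and Ly6e was below 2-fold. Ly6a was at 149.5 CPM at 7 days, 36.6 CPM at 1 day and 1049.8 CPM in bladder. Its log2 ratio was −2.81 [−2.85 to −2.77] at 7 days and −4.84 [−4.91 to −4.78] at 1 day over bladder, and 2.03 [1.97 to 2.10] at 7 days over 1 day. Ly6c1 was at 13.2, 2.56 and 149.7 CPM in this order, with log2 ratios over bladder of −3.50 and −5.87. Ly6e was at 105, 94.6 and 173 CPM, with log2 ratios of −0.72 and −0.87. Smooth muscle markers summed to 1255 CPM at 7 days, 1437 CPM at 1 day and 190.2 CPM in bladder in these fibroblasts, and their part in the Ly6 values was not tested. Of 4 measured family genes, 0 were higher and 3 lower in 7-day assembloids than in bladder, against 16.0% and 17.3% of 6546 genes. In 1-day assembloids 0 were higher and 3 lower, against 18.9% and 19.9% of 6603 genes. In 7-day over 1-day assembloids 2 were measured, of which 1 was higher and 0 lower, against 1.86% and 0.0532% of 5644 genes. The third lower gene in both ratios over bladder was Ly6d, at the low level described above.

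Fibroblasts of the vessel and organ sheath are known by Pi16, and Ly6a was higher in cells with Pi16 UMIs without being limited to them. In 7-day assembloids Ly6a was at 632 CPM in 551 fibroblasts with at least 2 UMIs of Pi16 and 116 CPM in 2319 with none. In 1-day assembloids it was at 109.6 CPM in 29 cells and 34.7 CPM in 3289 cells, and in bladder at 1153 CPM in 1108 cells and 690.4 CPM in 307 cells. Assembloids thus had fewer Pi16 cells, and cells without Pi16 also had less Ly6a than those of bladder. The Pi16 cut-offs are raw counts at unequal depth. Fibroblasts had a median of 18503 UMIs at 7 days, 18716 at 1 day and 5790 in bladder. At 7 days the 551 Pi16 cells held 2806553 UMIs and the 2319 cells without it 51356470. Cells with no Pi16 UMI can include shallow cells that missed it. In fibroblasts with at least 3 UMIs of hedgehog response genes and no Pi16, Ly6a was at 204 CPM in 420 cells at 7 days, 41.6 CPM in 274 cells at 1 day and 1356 CPM in 77 cells of bladder. Bladder fibroblasts with Ly6c1 nearly all had Ly6a, at 93.7% of 300 thinned cells, against 65.9% of 1021 cells without Ly6c1. At 7 days these shares were 74.7% of 166 cells and 23.2% of 2493 cells. The 7-day values of this paragraph pool 1-day-like and bladder-like fibroblasts, which differed in Ly6a and depth, as described further on. They were not counted within each kind.

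Ly6c2 was found mainly in immune cells, and there mostly in monocytes and in T and NK cells. In all immune cells it was at 48.2 CPM [33.6 to 67.1] at 7 days (35 UMIs in 5 of 90 cells), 0 UMIs in 83 cells at 1 day, and 267 CPM [213 to 331] in bladder (83 UMIs in 21 of 90 cells). Set against a floor of 3 counts per class, the 1-day level was at least 63.3-fold lower than in bladder. In monocytes Ly6c2 was at 837 CPM in 9 cells at 7 days and 844 CPM in 17 cells of bladder, and in T and NK cells at 650.1 CPM in 7 cells and 348 CPM in 31 cells. Only 2 of these 9 monocytes and 2 of these 7 T and NK cells at 7 days held a Ly6c2 UMI. Macrophages had 0 Ly6c2 UMIs in each library, over 55, 83 and 15 cells, and all 83 immune cells of the 1-day library were macrophages. With so few cells, the makeup of the immune class and the level per cell cannot be told apart.

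Ly6e in immune cells was at 270.2, 246 and 900.4 CPM at 7 days, at 1 day and in bladder. Within macrophages alone it was at 227 CPM [191 to 267], 246 CPM [211 to 285] and 899 CPM [695 to 1144], so the difference from bladder was as large without the other immune cells. Ly6a had 6, 10 and 16 UMIs in the immune classes, and of the 16 bladder UMIs 8 lay in 1 B cell and 7 in 1 dendritic cell. Of 5 measured family genes, 0 were higher and 5 lower in 7-day assembloids than in bladder, against 15.3% and 17.5% of 6289 genes. In 1-day assembloids 0 were higher and 5 lower, against 17.5% and 20.5% of 6329 genes. In 7-day over 1-day assembloids 2 were measured, of which 1, Ly6c2, was higher and 0 lower, against 2.77% and 1.61% of 5698 genes. The 5 include Ly6d, Psca and Ly6a, which rest on few UMIs. The Ly6c2 call at 7 days over 1 day was lost with cells thinned to 2500 UMIs, at a log2 ratio of 0.51, with at least 1000 genes per cell, at 2.38, and with 1-day-like cells only, at 0.14. With the mean of per-cell CPM, the log2 ratio at 7 days over bladder was −0.92 for Ly6e and −0.50 for Ly6c2, and that of Ly6a at 1 day over bladder was −0.20, all below 2-fold.

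Ly6c1 and Ly6c2 share stretches of transcript sequence but were found mainly in different cell classes, so the bases before their starts are shown together. RefSeq on GRCm38.p6 gives 2 starts for each gene, and the 150 bases before the first listed one are printed, on the minus strand. These are chr15:75048838-75048987 for Ly6c1 and chr15:75111972-75112121 for Ly6c2. Capitals mark matches to a searched motif.
Ly6c1: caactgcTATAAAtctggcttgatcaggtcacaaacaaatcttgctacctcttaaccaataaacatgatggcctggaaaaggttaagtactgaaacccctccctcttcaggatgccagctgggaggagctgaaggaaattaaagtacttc
Ly6c2: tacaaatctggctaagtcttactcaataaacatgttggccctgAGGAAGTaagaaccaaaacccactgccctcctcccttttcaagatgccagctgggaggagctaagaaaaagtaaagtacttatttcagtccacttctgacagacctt
The best local alignment of the 300-base promoter windows of both genes covered 286 positions, with 214 identical bases (74.8%). The motifs searched on both strands were TTCNNNGAA (a STAT-like motif), AGGAAGT (an ETS-like motif), the TATA box core TATAAA, the GATA factor motif AGATAA and a core of the interferon response element. No pair of them overlapped in either window, and shorter forms of these motifs were not searched. The Ly6c1 window held TATAAA, found in 7.57% of all 32851 windows of this length, and the Ly6c2 window held AGGAAGT, found in 5.07%. Neither held TTCNNNGAA, found in 4.09% of windows, or AGATAA, found in 5.65%, or the interferon response element core, found in 1.59%. These matches describe the letters of the window and are not sites.

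Because the libraries read transcript 3′ ends, alike genes could exchange reads. Of 341 windows of 60 bases in the last 400 bases of the longest Ly6c1 transcript, 65 (19.1%) were also in a Ly6c2 transcript, and the same number the other way round. No such window was shared between any other pair of the 6 genes. Reads from the shared windows could not be placed in 1 gene, so low values of one beside high values of the other are uncertain. Ly6c2 was at 2.23 CPM in bladder endothelial cells, where Ly6c1 was at 1211 CPM.

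Over the 4 classes, 17 pairs of gene and class were measured in 7-day assembloids over bladder, of which 2 were higher and 11 lower, against 23.9% of all 24508 gene and class pairs changed either way. In 1-day assembloids over bladder 2 of 17 were higher and 12 lower, against 35.6% of 25641 pairs. In 7-day over 1-day assembloids 6 of 12 were higher and 2 lower, against 6.22% of 23361 pairs. Ratios over bladder share the bladder library, and each assembloid library enters 2 of the 3 ratios. The genes were chosen with these ratios known, so nothing is read from their counts against these shares. Ly6a and Ly6e were each higher in one class and lower in others within the same comparison. At 1 day over bladder Ly6a had log2 ratios of 7.03 in urothelial cells, −2.06 in endothelial cells, −4.84 in fibroblasts and −1.85 in immune cells.

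The 7-day values are means over cells of opposite kinds. Each 7-day cell was compared with the summed 1-day and bladder profiles of its class, leaving out the whole Ly6 family, and given to the more likely one. Of 2117 urothelial cells, 632 (29.9%) were 1-day-like and 1485 (70.1%) bladder-like. Ly6a was at 1077 CPM in the 1-day-like cells and 15.1 CPM in the bladder-like cells, beside 1087 CPM in the 1-day library and 8.34 CPM in bladder. Ly6e was at 696 and 64.7 CPM, beside 683 and 64.3 CPM. Ly6d, at 6506 and 5617 CPM, and Psca, at 1585 and 1427 CPM, differed little. The intermediate Ly6a and Ly6e levels at 7 days were thus the mean of cells near the 1-day level and cells near the bladder level.

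Endothelial cells split in the same way but with 1-day-like cells above the 1-day library. Of 903 cells, 323 were 1-day-like and 580 bladder-like. Ly6c1 was at 51.6 CPM [44.5 to 59.6] in the 1-day-like cells, beside 9.17 CPM [6.55 to 12.5] in the 1-day library, and at 1160.1 CPM in the bladder-like cells. Ly6a was at 333 and 951 CPM and Ly6e at 332 and 1510.1 CPM in these cells. Of 3141 fibroblasts, 2217 were 1-day-like and 924 bladder-like. Ly6a was at 115 CPM [113 to 118] in the 1-day-like fibroblasts, beside 36.6 CPM [35.1 to 38.1] in the 1-day library, and at 828 CPM in the bladder-like ones. Ly6c1 was at 8.22 and 112 CPM. In both stromal classes the 7-day level of Ly6a was thus above that at 1 day also among 1-day-like cells. The same held for Ly6c1 in endothelial cells. In 1-day-like endothelial cells over the 1-day library the log2 ratio was 0.66 for Ly6a and 0.25 for Ly6e, both below 2-fold. Ly6c1 in fibroblasts, at 8.22 CPM in 1-day-like cells and 2.56 CPM in the 1-day library, was below the 20 CPM minimum in both. Ly6d, not read as expression in this class, was at 17.0 and 11.2 CPM in the same fibroblasts. In immune cells all 35 Ly6c2 UMIs lay in the 43 bladder-like cells. The bladder-like cells were shallow, with a median of 2246 UMIs in endothelial cells and 2517 in fibroblasts, against 9849 and 23726 in the 1-day-like cells. Of all 6251 cells of the 4 classes at 7 days, 27 shared a barcode with the bladder library.

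**Figure D4:**
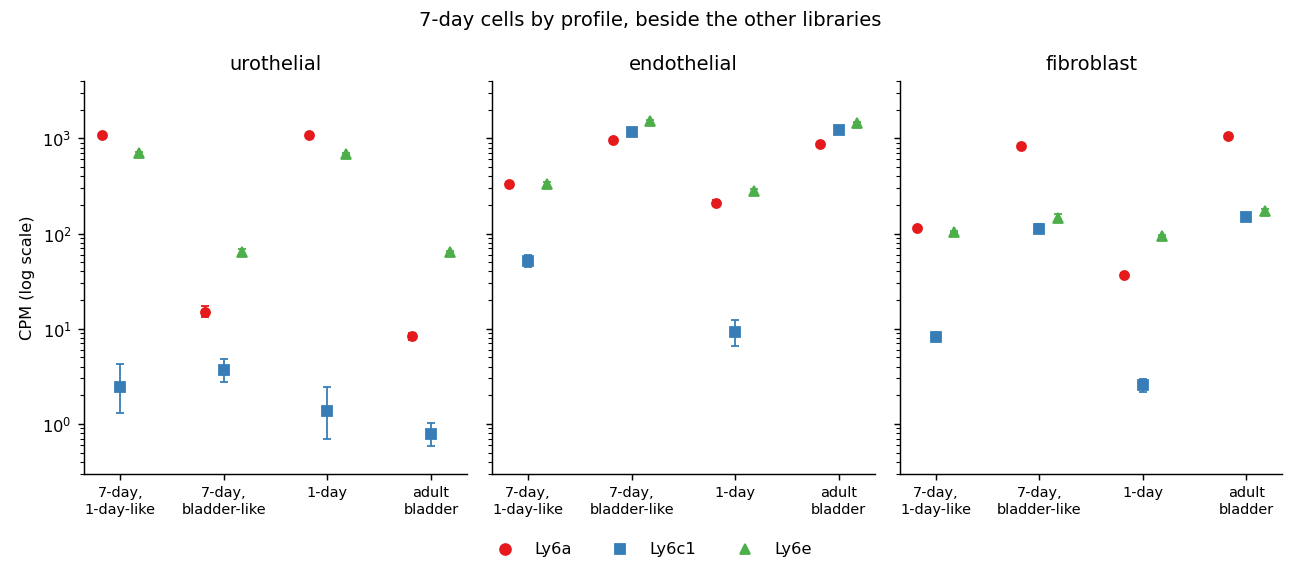
Level of Ly6a, Ly6c1 and Ly6e in CPM (log axis) in urothelial, endothelial and fibroblast cells of the 7-day library, split into 1-day-like and bladder-like cells by a profile without Ly6 genes, beside the 1-day and bladder libraries. Points are sums over cells and bars are 95% counting intervals. In urothelial cells Ly6a was at 1077 CPM in 1-day-like and 15.1 CPM in bladder-like cells.

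Other genes of the Ly6 and uPAR family were mostly low. Of 35 listed, 32 were in the gene set, and between 1 and 4 of them reached 20 CPM in any class and comparison. In urothelial cells 1 was higher, 1 lower and 2 neither at 1 day over bladder, with a list median of −0.20 against 0.23 over all genes. Plaur, the urokinase receptor, was lower, at 73.0 CPM at 7 days, 11.1 CPM at 1 day and 141 CPM in bladder, a log2 ratio of −3.65 at 1 day over bladder. Lynx1, a modulator of acetylcholine receptors, was higher, at 32.5 CPM at 1 day against 10.7 CPM in bladder. Lypd3, a GPI-anchored protein of stratified epithelia, was at 204, 250 and 191 CPM in the 7-day, 1-day and bladder class, and Ly6k, a gene of testis and tumours, at 79.7, 44.8 and 77.8 CPM. In endothelial cells Gpihbp1, which carries lipoprotein lipase across capillary walls, was at 269 CPM at 7 days, 46.8 CPM at 1 day and 332 CPM in bladder. Its log2 ratios were −0.30 at 7 days and −2.82 at 1 day over bladder, the same order of libraries as for Ly6c1.

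Genes that build and attach the GPI anchor were counted next. In urothelial cells 0 of 12 measured genes passed 2-fold at 7 days and 0 of 13 at 1 day over bladder, with medians of −0.04 and 0.02 against 0.02 and 0.23 over all genes. In endothelial cells 3 of 11 were higher and 1 lower in both ratios over bladder, with medians of 0.19 and 0.33, where 12.5% and 22.7% of all genes were higher and 11.0% and 22.1% lower. In immune cells 1 of 12 was higher and 1 lower at 7 days over bladder, and 2 of 13 higher and 0 lower at 1 day. Of all immune genes, 15.3% were higher and 17.5% lower at 7 days, and 17.5% and 20.5% at 1 day. Dpm1, a subunit of dolichol phosphate mannose synthase, was the lower one in endothelial cells, at log2 ratios of −1.20 and −1.97. In fibroblasts Dpm1 was the only one of 12 past 2-fold, at −1.53 and −1.76. Other GPI-anchored surface proteins, a list that holds Plaur, Lypd3 and Gpihbp1 too, were lower in fibroblasts than in bladder for 13 of 20 genes at 7 days and 14 of 22 at 1 day, and higher for 3 and 4. Over all fibroblast genes 17.3% and 19.9% were lower, and 16.0% and 18.9% higher. The fibroblast medians of this list were −2.28 and −1.81, against 0.11 and 0.12 over all genes, and Art3 had the lowest value at 1 day (−7.63). In urothelial cells 0 of 10 passed 2-fold at 7 days, and at 1 day 3 of 11 were higher and 4 lower. Over all urothelial genes at 1 day, 10.9% were higher and 7.09% lower.

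Genes of the interferon response, to which Ly6a and Ly6e are known to belong in mouse cells, were mostly lower in assembloid stroma. In endothelial cells 23 of 34 measured genes were lower and 0 higher at 7 days over bladder, and 29 of 34 lower and 0 higher at 1 day, with medians of −1.46 and −3.53 against 0.02 and 0.10 over all genes. Iigp1, a GTPase induced by interferon, was at 205 CPM at 7 days, 1.38 CPM at 1 day and 807 CPM in bladder. In fibroblasts 11 of 18 were lower at 7 days and 13 of 18 at 1 day, with 0 higher in either, and Ifitm1 was at 113 CPM at 7 days, 8.32 CPM at 1 day and 622 CPM in bladder. In immune cells 7 of 26 and 13 of 25 were lower and 0 higher. Of all genes, 11.0% at 7 days and 22.1% at 1 day were lower in endothelial cells. These shares were 17.3% and 19.9% in fibroblasts and 17.5% and 20.5% in immune cells. In urothelial cells 0 of 7 passed 2-fold at 7 days. At 1 day 2 of 8 were higher and 3 lower there, with a median of −0.02 against 0.23 over all genes. Of all urothelial genes, 10.9% were higher and 7.09% lower at 1 day. At 1 day over bladder Ly6a and Ly6e were lower in endothelial cells, as were 29 of 34 list genes. In urothelial cells both were higher, as were 2 of 8 list genes, while 3 were lower. In fibroblasts Ly6a was lower, at a log2 ratio of −4.84, and Ly6e stayed below 2-fold, at −0.87. The part of interferon in these values was not tested.

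Genes beside the Ly6 cluster were counted in the same way. Of the 40 listed neighbours, 17 were measured in urothelial cells at 1 day over bladder, of which 3 were higher and 0 lower, with a median of 0.41 against 0.23 over all genes, of which 10.9% were higher. In endothelial cells, where the Ly6 genes were lower, 6 of 15 neighbours were higher and 0 lower at 1 day, with a median of 0.79 against 0.10 over all genes, of which 22.7% were higher. Of all fibroblast genes, 16.0% were higher and 17.3% lower at 7 days, and 18.9% and 19.9% at 1 day. Among the neighbours in fibroblasts 4 were higher and 1 lower of 15 at 7 days and of 14 at 1 day. The lower one was Arc, an immediate early gene, at 2.37 CPM at 7 days, 0.27 CPM at 1 day and 43.3 CPM in bladder.

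The genes most like each family gene were ranked by the Pearson correlation of log2(CPM + 5) over the 12 class and library levels, among 3151 genes with at least 100 CPM in 1 level. The 12 levels come from 3 libraries and 4 classes, so they are not independent. Ly6d and Psca correlated at 0.996 with each other, and Ly6a with Ly6c1 at 0.66. Among the genes nearest to Ly6d were Tmprss2 and Aqp3, at 1.00 and 0.99, and nearest to Psca were Krt5, Tmprss2 and Epcam. Krt5 and Epcam are urothelial class markers, and the ranking follows class levels and not layers. Krt5 is a basal marker too, while within the urothelium Psca was lower with a higher basal share. Nearest to Ly6c2 were Plbd1, Ms4a4c and the monocyte chemokine receptor Ccr2, each at 1.00. Nearest to Ly6c1 were Galnt15, Smarca2 and Adamts9, each at 0.96. For Ly6a no gene came as close, with Smim11 at 0.88, Hes1 at 0.85 and Tmem158 at 0.84, and for Ly6e the nearest were Pitpnc1, Git2 and Vgll4 at 0.87 to 0.88.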

How the data were processed

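Per the labels, the libraries were made from dissociated cells with the version 3 chemistry of the 10x Genomics 3′ kit. The deposited values are UMI counts per gene and barcode, which per the file headers the authors made with Cell Ranger 3.1.0. The submitters' processing notes name the builds GRCh38 and mm10, while the annotation and cell calling settings were not stated there. The matrices held 9548, 9039 and 8642 barcodes and 120301672, 135955678 and 93560608 UMIs for 7-day assembloids, 1-day assembloids and adult bladder.

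Mouse cells had at least 90% mouse UMIs, 500 genes and less than 20% of UMIs from mitochondrial genes. Doublets were then removed with Scrublet (scanpy 1.11.5), which marked 202, 280 and 238 cells (2.41%, 3.28% and 3.39%). Classes came from 8 marker lists. Cells with no class (1731, 2790 and 1187) were not used, nor were smooth muscle, pericyte and glial cells. UMIs were summed per class and library, with 0.5 counts added for log2 ratios and exact intervals for ratios and shares (Python 3.11.15, scipy 1.17.1). No count model was fitted. The calls were tested on simulated data. UMIs mark molecules, and intervals and floors cover counting error only.

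The genes, lists and splits were chosen with earlier results of these data known. Named genes were the 6 family genes, the 3 most correlated with each and up to 3 per list by absolute log2 ratio, and 1 gene that this rule names is not reported here. Col1a1, Epcam, Pecam1, Upk3a, Krt20, Lypd3, Ly6k and Pi16 are markers or list members named for their level or for a split of cells. Gene positions are from GENCODE vM21 and promoters from RefSeq, which matched Ly6c1 and Ly6c2 by symbol. Alternatives changed the filters, class gates, scaling and cells used.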

Additional observations from a re-analysis of the deposited data

Results flagged for a closer look

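Ly6a and Ly6e were each called in opposite directions in different cell classes under the same comparison, and the difference between the classes was not tested. In 7-day assembloids over bladder, Ly6a had log2 ratios of 5.15 in urothelial cells, −2.81 in fibroblasts and −2.57 in immune cells, and Ly6e of 1.85 in urothelial cells, −1.06 in endothelial cells and −1.74 in immune cells. In 1-day assembloids over bladder, Ly6a was at 7.03 in urothelial cells, −2.06 in endothelial cells, −4.84 in fibroblasts and −1.85 in immune cells, and Ly6e at 3.41 in urothelial cells, −2.37 in endothelial cells and −1.87 in immune cells. In 7-day over 1-day assembloids, Ly6a was at −1.88 in urothelial cells, 1.31 in endothelial cells and 2.03 in fibroblasts, and Ly6e at −1.56 in urothelial cells and 1.31 in endothelial cells. The Ly6a values of immune cells rest on 6, 10 and 16 UMIs in the 7-day, 1-day and bladder libraries.

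Human barcodes, which no comparison above uses, also held Ly6 family transcripts. Among barcodes with at least 90% human UMIs and at least 1000 of them, LY6E was at 150 CPM in 73 barcodes of the 7-day library and 183 CPM in 114 barcodes of the 1-day library. LY6K was at 20.3 CPM and 34.6 CPM in these barcodes. The bladder library held 0 such barcodes, and the labels name no human cells.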

How the results depend on the processing

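No paired analysis was possible because each group has 1 library. Of 567 values that 17 alternatives gave for called log2 ratios, 563 kept their direction and 516 their call. The 4 reversals came from the split of the 7-day cells. In bladder-like 7-day cells over bladder, Ly6c2 in immune cells turned to 0.74, Ly6e in endothelial cells to 0.0680 and Psca in immune cells to 0.39. In 1-day-like 7-day cells over 1-day assembloids, Ly6e in urothelial cells turned to 0.0267. With bladder-like cells only, the pairs past 2-fold in 7-day assembloids over bladder numbered 1 in place of 13, and with 1-day-like cells only, those in 7-day over 1-day assembloids numbered 2 in place of 8. The mean of per-cell CPM, which weights shallow cells as much as deep ones, gave 7 in place of 13 for 7-day assembloids over bladder. All other counts of pairs stayed within 1.5 times. Counting Ly6d and Psca in urothelial cells only, an alternative chosen after seeing the data, gave 9, 10 and 7 pairs in place of 13, 14 and 8. Ly6a in urothelial cells at 1 day over bladder ranged from 6.55 to 7.05. With 83 to 90 immune cells per library, low values there are limited by depth, and no alternative replaces a missing replicate.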
